A study of Mus musculus with 6 samples.

Results

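Interferon receptors, the signal transducer Stat2 and the interferon regulatory factors (IRFs) were followed in mouse embryonic fibroblasts (MEFs) as the cells were passaged toward senescence. The set holds 9 genes of the 21988 in the deposited expression table. They were chosen by gene symbol, with earlier results of these data known. The 9 are the receptor genes Ifnar1 and Ifnar2, Stat2, and Irf1, Irf2, Irf3, Irf5, Irf7 and Irf9. The MEFs were isolated from C57BL/6 embryos on day 13.5 and cultured in serum; no other genotype or treatment is given. Cells were harvested at population doubling (PD) 2, 8 and 14, where the PD is the sum over passages of the log2 ratio of cells counted to cells seeded. Each of the 3 groups had 2 libraries: replicate 1 was made after removal of ribosomal RNA and is called ribo-depleted, and replicate 2 was made by poly(A) selection. The 2 libraries of a group therefore differ in method, and nothing in the labels ties them to separate cultures, so the tests measure only the spread between these 6 libraries.

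Type I interferons bind a receptor made of the IFNAR1 and IFNAR2 chains. The receptor's kinases phosphorylate STAT proteins, and STAT2 enters the nucleus in a complex with IRF9 that binds interferon-stimulated response elements (ISREs) in the promoters of antiviral genes. IRF3 and IRF7 act upstream, where they switch on interferon genes once a sensor of foreign or misplaced nucleic acid has been triggered, and IRF7 is itself a classical interferon-induced gene. IRF1 activates interferon-response and antigen-presentation genes, IRF2 competes with it for the same sites, and IRF5 is best known as an inflammatory factor of macrophages.

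Values are TPM, a measure of transcript abundance that is scaled by transcript length, so levels of different genes can be compared. The summed TPM lay between 937217 and 1000000 per library, and read numbers are unknown. Fibroblast markers were abundant in all 6 libraries, with a summed TPM over 10 genes from 16462 to 31016. Of 18 macrophage and leukocyte markers 16 passed the filter on TPM, and the T cell gene Cd3e was listed at 0 everywhere. The summed TPM of these 18 went from 173 at PD2 to 34.3 at PD8 and 48.8 at PD14 in the ribo-depleted libraries. In the poly(A) libraries it went from 441 to 756 and 718. Much of each sum was Lyz2, at 98.5, 15.1 and 21.7 TPM and at 337, 621 and 569 TPM in the respective methods. Of the 16 tested, 2 went up from PD2 to PD14 in the ribo-depleted and 12 in the poly(A) libraries. C1qa, C1qb, C1qc and Mrc1 went down in both, and Cd14 and Cd74 went up in both. The remaining tested markers went down in the ribo-depleted and up in the poly(A) libraries. Of 8 plasmacytoid dendritic cell markers 3 passed the filter: Tcf4, at 41.8 to 220 TPM, Tlr7 and Cox6a2. Siglech, of the same list, was listed at 0 in every library. In bulk RNA, fewer cells of a type and less RNA per cell cannot be told apart.

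The upstream DNA of these genes is shown for Stat2 and Irf2, which rose and hold an ISRE match, and for Irf7, which had the largest fitted change. All 9 genes were found in the RefSeq promoter table (build GRCm38.p6, which shares its coordinates with mm10). The 250 bases before each RefSeq start were searched on both strands for the ISRE core, GAAA and a further GAAA after any 2 bases, and for the gamma-activated site (GAS) bound by STAT dimers, TTCNNNGAA. Capitals mark the matches, which did not overlap each other. Stretches that fall in annotated exons are left out, and all 3 sequences run 5′ to 3′ on the strand of the gene.
Stat2 (chr10:128270248-128270497, plus strand): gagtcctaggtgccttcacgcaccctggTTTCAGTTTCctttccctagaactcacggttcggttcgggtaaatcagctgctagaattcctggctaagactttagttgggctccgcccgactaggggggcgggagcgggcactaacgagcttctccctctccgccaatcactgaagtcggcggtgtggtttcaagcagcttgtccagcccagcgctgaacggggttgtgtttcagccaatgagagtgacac
Irf2 (chr8:46739516-46739731, plus strand): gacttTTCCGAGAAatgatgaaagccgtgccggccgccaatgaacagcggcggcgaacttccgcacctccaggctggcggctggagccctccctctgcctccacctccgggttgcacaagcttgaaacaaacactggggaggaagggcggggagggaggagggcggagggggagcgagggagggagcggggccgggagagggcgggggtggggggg
Irf7 (chr7:141266482-141266674, minus strand): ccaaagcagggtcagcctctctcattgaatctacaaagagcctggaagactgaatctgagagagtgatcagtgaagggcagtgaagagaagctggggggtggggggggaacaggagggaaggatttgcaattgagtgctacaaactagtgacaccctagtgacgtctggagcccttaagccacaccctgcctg

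An ISRE match was present upstream of 2 of the 9 genes. In Stat2 it reads TTTCAGTTTC and lies 222 to 213 bases before the RefSeq start. In Irf2 it reads GAAAATGAAA and lies 241 to 232 bases before the start. Those bases fall in an annotated exon of Gm16675, so the match is just outside the stretch printed. The promoter table covers 27025 genes, of which 3.46% held an ISRE match in the same window, as did 2.98% of its 32851 promoters. A GAS match was present in 3 of the 9: Irf2 (TTCCGAGAA, 224 to 216 bases before the start), Irf1 (TTCCCCGAA, 90 to 82 bases) and Ifnar2 (TTCCTGGAA, 214 to 206 bases). Of all genes 8.13% held one, and of all promoters 7.02%. The windows of Irf7, Irf9, Irf3, Irf5 and Ifnar1 held neither set of letters, which describes these windows alone.

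Across the whole passage span, PD14 against PD2, Stat2, Irf9 and Irf2 rose and none of the 9 genes fell. Stat2 rose by a fitted log2 of 2.06 ± 0.37 (SE), Irf9 by 1.40 ± 0.23 and Irf2 by 0.96 ± 0.18, with 2 libraries per group. The largest fitted value was that of Irf7, 2.68 ± 0.76, which did not pass. The counts were 3 of 9 higher and 0 of 9 lower in limma (5 of 9 at an unadjusted p under 0.05), beside 6.41% of the 13332 genes tested called higher and 4.77% called lower. All 9 genes passed the filter, a TPM of 1 in 2 or more libraries. The median fitted change was 0.78 over the 9 genes and 0.06 over all genes tested. Called means a limma p adjusted by the Benjamini-Hochberg method over all 13332 genes under 0.05, in a fit of log2(TPM + 1) with library method as a block. The added 1 understates the fold of genes with low TPM.

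**Figure D1:**
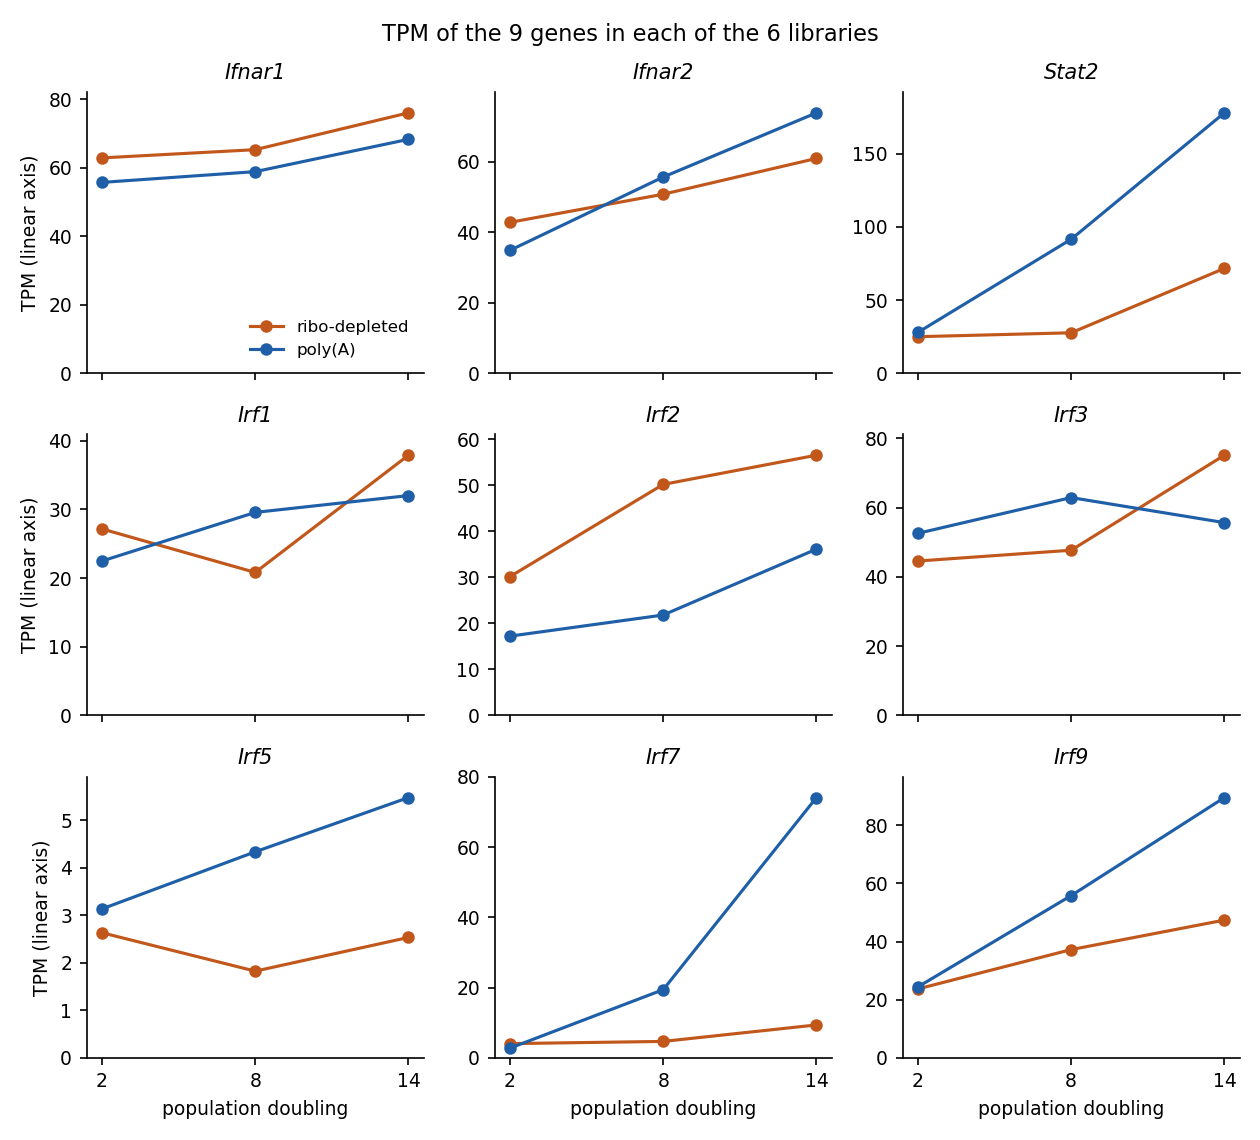
TPM on linear axes (vertical, each panel with its own scale from 0) against population doubling (horizontal) for the 9 genes, 1 point per library, with the 3 ribo-depleted libraries joined in orange and the 3 poly(A) libraries in blue. Stat2, Irf7 and Irf9 end highest in the PD14 poly(A) library, at 178, 74.1 and 89.6 TPM, while Ifnar1 stays between 55.7 and 76.0 TPM.

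The receptor chains were among the better expressed of the 9 genes, and Ifnar1 had the smallest fitted change. Ifnar1 (chromosome 16, 91485238 to 91507441 on mm10) was at 62.9, 65.3 and 76.0 TPM in the ribo-depleted libraries of PD2, PD8 and PD14, the order kept below, and at 55.7, 58.9 and 68.3 TPM in the poly(A) libraries. Both PD14 libraries were above both PD2 libraries, but the fitted log2 change of 0.28 ± 0.12 did not pass in limma (adjusted p = 0.173).

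Ifnar2, the chain with the longer signalling tail, lies on the same chromosome (91372783 to 91405589). It was at 42.7, 50.7 and 60.9 TPM in the ribo-depleted libraries and at 34.8, 55.6 and 73.8 TPM in the poly(A) libraries. Each later group lay above the earlier one in both methods without overlap. The fitted change from PD2 to PD14 was 0.78 ± 0.18 and missed the threshold in limma (adjusted p = 0.0515). Ifnar2 shares 315 exonic bases with the gene model Gm21970 on the same strand, so part of its reads could be assigned to either.

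Stat2, which encodes a STAT protein of interferon signalling (chromosome 10, 128270559 to 128292849), was at 24.9, 27.6 and 71.7 TPM in the ribo-depleted libraries and at 27.9, 91.6 and 178 TPM in the poly(A) libraries. The PD14 libraries were 2.88 and 6.39 times the PD2 libraries of the same method, and the groups did not overlap. Stat2 rose (adjusted p = 0.0349 in limma). At PD8 the methods differed: the ribo-depleted library was close to PD2 and the poly(A) library was far above it.

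Irf9, the DNA-binding partner of STAT2 (chromosome 14, 55603571 to 55610030), was at 23.7, 37.3 and 47.4 TPM in the ribo-depleted and at 24.4, 55.8 and 89.6 TPM in the poly(A) libraries. Both methods started at nearly the same level and both went up at each step. Irf9 rose from PD2 to PD14 (adjusted p = 0.0307 in limma), by a TPM ratio of 2.00 and 3.67 in the respective methods. It shares 123 exonic bases with Rnf31 on the same strand. The TPM of Stat2 divided by that of Irf9 was 1.05 and 1.14 in the PD2 libraries and 1.51 and 1.99 in the PD14 libraries, with 0.741 and 1.64 at PD8.

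Irf7, the amplifying factor of the interferon response (chromosome 7, 141262706 to 141266481), differed most between libraries. It was at 4.05, 4.67 and 9.37 TPM in the ribo-depleted libraries and at 2.76, 19.4 and 74.1 TPM in the poly(A) libraries. Both PD14 libraries were above both PD2 libraries, by a TPM ratio of 2.31 and 26.9 within method. With that spread the fitted change of 2.68 ± 0.76 did not pass in limma (adjusted p = 0.0819). It shares 45 exonic bases with Phrf1 on the opposite strand; whether strand was used in counting is not given, so such reads may be assigned to either gene.

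Irf3, the constitutively made factor that acts beside IRF7 in inducing interferon genes (chromosome 7, 44997648 to 45002848), was at 44.6, 47.7 and 75.1 TPM in the ribo-depleted and at 52.6, 62.9 and 55.7 TPM in the poly(A) libraries. Its high library was the ribo-depleted PD14 one, and the poly(A) libraries were highest at PD8. The fitted change was 0.41 ± 0.22 (adjusted p = 0.268 in limma). It shares 88 exonic bases with Bcl2l12 on the opposite strand. The TPM of Irf7 divided by that of Irf3 was 0.0908 and 0.0524 at PD2, 0.0980 and 0.309 at PD8, and 0.125 and 1.33 at PD14, so Irf7 exceeded Irf3 in the PD14 poly(A) library alone.

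Irf1 and Irf2 encode proteins that bind like sites. Irf1 (chromosome 11, 53770014 to 53778374) was at 27.2, 20.8 and 37.9 TPM in the ribo-depleted and at 22.5, 29.6 and 32.0 TPM in the poly(A) libraries. The PD8 libraries went opposite ways from PD2, and the PD14 change of 0.48 ± 0.23 did not pass in limma (adjusted p = 0.224). It shares 135 exonic bases with Gm17334 on the opposite strand.

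Irf2 (chromosome 8, 46739732 to 46847458) was at 30.2, 50.2 and 56.5 TPM in the ribo-depleted libraries and at 17.2, 21.8 and 36.1 TPM in the poly(A) libraries. It was higher in the ribo-depleted library of every group, and it went up at each step within each method. Irf2 rose from PD2 to PD14 (adjusted p = 0.0382 in limma), by a TPM ratio of 1.87 and 2.10, the most even of the 3 genes that rose. Whether Irf1 and Irf2 differed in their change was not tested.

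Irf5 (chromosome 6, 29526625 to 29541871) had the lowest mean level of the 9 genes, with 2.63, 1.82 and 2.53 TPM in the ribo-depleted and 3.13, 4.33 and 5.48 TPM in the poly(A) libraries. Groups overlapped, and the fitted change of 0.30 ± 0.29 did not pass in limma (adjusted p = 0.510). It shares 411 exonic bases with Tnpo3 on the opposite strand. The macrophage and leukocyte markers had a median change from PD2 to PD14 of -1.16 in the ribo-depleted and 0.44 in the poly(A) libraries, where Irf5 was at -0.04 and 0.65 and Irf7 at 1.04 and 4.32; their part in these values was not tested.

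**Figure D2:**
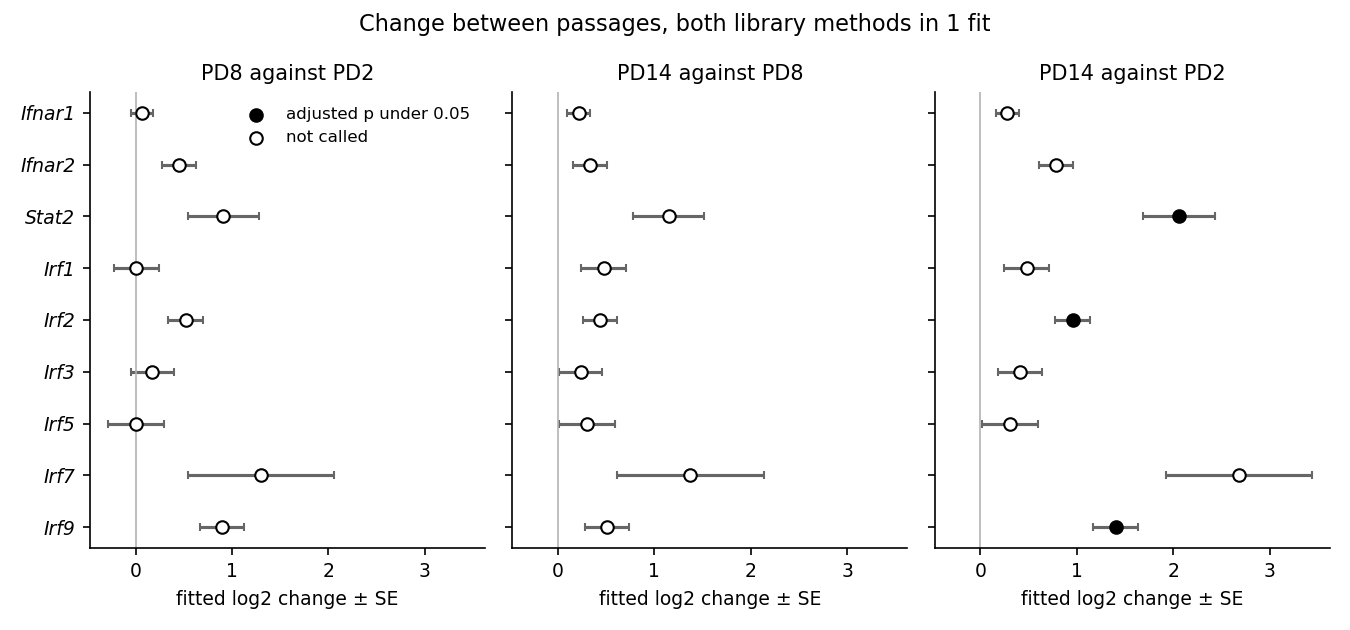
Fitted log2 change of TPM + 1 (horizontal, with bars of 1 SE) for the 9 genes (vertical) in the 3 comparisons of passages, both library methods in 1 fit. Filled points are Stat2, Irf2 and Irf9 in PD14 against PD2, and the bar of Irf7, 2.68 ± 0.76 there, is the widest.

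The early and the late step were then compared to ask when the change took place. For PD8 against PD2, 0 of 9 genes were called in limma (3 of 9 at an unadjusted p under 0.05), beside 0.0225% of all genes called higher and 0% called lower. The largest fitted values were 1.31 ± 0.76 for Irf7, 0.91 ± 0.37 for Stat2 and 0.90 ± 0.23 for Irf9. Within method Irf7 changed by 0.17 in the ribo-depleted and 2.44 in the poly(A) libraries. Stat2 changed by 0.14 and 1.68 and Irf9 by 0.63 and 1.16. A fit without 1 PD2 library takes the method difference from PD8 and PD14 alone, and its values moved. Without the poly(A) PD2 library Irf7 was at -0.083, Stat2 at 0.24 and Irf9 at 0.55. Without the ribo-depleted PD2 library they were at 2.69, 1.58 and 1.24. For PD14 against PD8, 0 of 9 were called in limma (1 of 9 at an unadjusted p under 0.05), beside 0% called higher and 0% called lower over all genes. There Irf7 was at 1.37 ± 0.76, Stat2 at 1.15 ± 0.37 and Irf9 at 0.51 ± 0.23. Over left-out libraries these ran from 0.30 to 2.45, from 0.67 to 1.63 and from 0.21 to 0.81. The median over the 9 genes was 0.45 for the early and 0.44 for the late step, beside 0.04 and 0.01 over all genes.

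The late step minus the early step was tested directly, and 0 of 9 genes were called in limma (also 0 of 9 at an unadjusted p under 0.05, and 0% of all genes in either direction). The differences were 0.47 ± 0.40 for Irf1, 0.24 ± 0.64 for Stat2, 0.07 ± 1.31 for Irf7 and -0.39 ± 0.40 for Irf9. The F test over all 3 groups called 0 of 9 in limma (5 of 9 at an unadjusted p under 0.05), beside 1.46% of all genes, with the smallest adjusted p at 0.0748 for Irf9.

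Separation of the libraries gave a view that does not depend on the fitted spread. Both PD14 libraries were above both PD2 libraries for 8 of 9 genes, all but Irf5, beside 22.4% of all genes tested. For PD8 against PD2 this held for 3 of 9 (Ifnar2, Irf7 and Irf9), beside 19.5%. For PD14 against PD8 it held for 3 of 9 (Ifnar1, Ifnar2 and Irf1), beside 8.12%. These counts also set libraries of unlike method against each other. From PD8 to PD14 Stat2 changed by 1.35 in the ribo-depleted and 0.95 in the poly(A) libraries, Irf7 by 0.87 and 1.88 and Irf9 by 0.34 and 0.67. Signs in that step agreed between methods for 8 of 9 genes, all but Irf3, beside 52.7% of all genes. For PD8 against PD2 they agreed for 7 of 9, beside 69.4%. None of the 9 genes was separated downward, beside 15.8%, 13.7% and 7.07% of all genes. The comparisons share libraries and are not independent of each other.

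The order of the levels changed over the passages. At PD2 Ifnar1 was highest, with 59.3 ± 5.06 TPM (SD, n = 2), followed by Irf3 at 48.6 ± 5.65 and Ifnar2 at 38.8 ± 5.61, each clear of the next. Stat2, Irf1, Irf9 and Irf2 then lay together between 26.4 and 23.7 TPM, and Irf7 and Irf5 were at 3.40 ± 0.91 and 2.88 ± 0.35, neither of these 2 runs of neighbours being separable by their libraries. At PD14 Stat2 had the highest mean, 125 ± 75.3 TPM, ahead of Ifnar1 (72.2 ± 5.48), Irf9 (68.5 ± 29.8), Ifnar2 (67.3 ± 9.14) and Irf3 (65.4 ± 13.8). Of the 8 pairs of neighbours in that order 7 overlapped. With the methods pooled, no gene above Irf1 (35.0 ± 4.16) could therefore be told from the next by its libraries. Within method Irf3 was above Irf2, the next in order, at 75.1 against 56.5 TPM (ribo-depleted) and 55.7 against 36.1 TPM (poly(A)). Irf5 stayed last in all 3 groups, at 4.0 ± 2.08 TPM at PD14. At PD8 6 of the 8 pairs of neighbours overlapped.

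Libraries of the 2 methods also differed, and method cannot be told apart from anything else that separated replicate 1 from replicate 2. Over the 3 groups Irf2 was higher in the ribo-depleted libraries by a log2 of 0.86 ± 0.15 (adjusted p = 0.0132 in limma). Stat2 was lower there by a fitted value of -1.05 ± 0.30 (adjusted p = 0.0461 in limma). Its ribo-depleted and poly(A) libraries were close at PD2 (24.9 and 27.9 TPM). They were apart at PD8 (27.6 and 91.6 TPM) and PD14 (71.7 and 178 TPM). The calls were 1 of 9 genes higher and 1 of 9 lower, beside 20.9% and 16.4% of all genes. From PD2 to PD14 the change was larger in the poly(A) libraries for 8 of 9 genes, Irf3 being the exception. This count was not taken over all genes. In the lists read below it went from 1 of 10 fibroblast markers to 25 of 25 targets of the STAT2-IRF9 complex. The median change of the 9 genes was 0.74 in the ribo-depleted and 1.03 in the poly(A) libraries, and their signs agreed between methods for 8 of 9, beside 69.6% of all genes. Whether a gene's change differs between methods cannot be tested with 1 library per group and method.

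**Figure D3:**
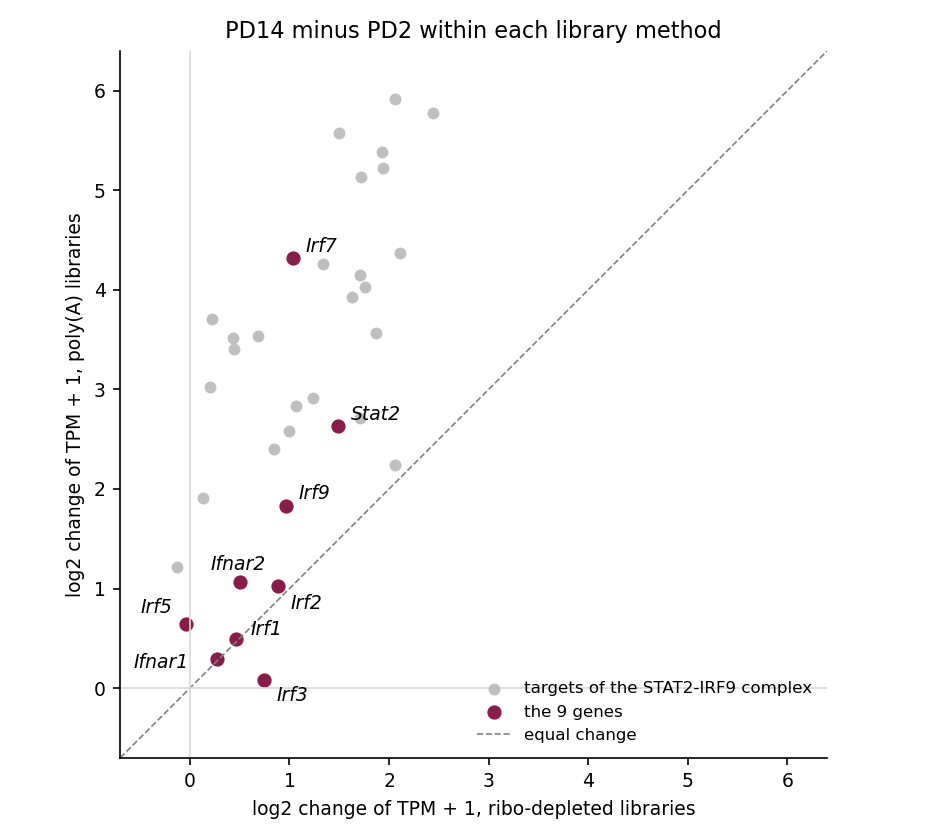
Log2 change of TPM + 1 from PD2 to PD14 in the poly(A) libraries (vertical) against the ribo-depleted libraries (horizontal), 1 point per gene, for the 9 genes in dark red and the 25 tested targets of the STAT2-IRF9 complex in grey, with a dashed line of equal change. Irf7 at 1.04 and 4.32, Stat2 at 1.49 and 2.63 and Irf9 at 0.97 and 1.83 lie above the line, Irf3 at 0.74 and 0.08 below it.

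The genes around these 9 were read from lists of the pathway. Interferon genes themselves were at or near 0: of 21 ligand genes 16 were listed at 0 in every library, and 0 passed the filter on TPM. The highest value was 1.09 TPM, that of Ifnz in the PD14 poly(A) library. Ifnz was at 0.064, 0.243 and 0.327 TPM in the ribo-depleted and at 0.169, 0.687 and 1.09 TPM in the poly(A) libraries. The interferon beta gene Ifnb1 was at 1.06 TPM in the PD14 poly(A) library and listed at 0 in the other 5.

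Of 8 tested JAK kinases and other STATs 2 rose and 0 fell from PD2 to PD14, with a median of 0.42. Stat5a, a STAT of cytokine and growth hormone signalling, rose by 1.10 ± 0.15 (adjusted p = 0.0221 in limma). Jak1, a kinase of the interferon receptor, rose by 0.53 ± 0.12 (adjusted p = 0.0489); it is named because it was the other gene called. Stat5b and Jak3 were at 0.77 ± 0.19 and 0.72 ± 0.24 and did not pass.

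Of 12 genes listed as negative regulators of receptor signalling 1 rose and 0 fell, with a median of 0.41. The gene that rose was Isg15, a ubiquitin-like protein that USP18 removes from its targets, at 3.58 ± 0.74 (adjusted p = 0.0436 in limma). Isg15 and Usp18 are also listed as targets of the STAT2-IRF9 complex. Usp18 was at 3.43 ± 0.78 and Socs1, an inhibitor of JAK kinases, at 1.09 ± 0.35, neither passing. Usp18 went from 3.16 to 12.7 TPM with ribo-depletion and from 4.13 to 179 TPM with poly(A) selection.

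Of 13 kinases and adaptors upstream of IRF3 and IRF7 0 rose and 1 fell, with a median of 0.07. Tmem173, the adaptor STING that relays cytosolic DNA sensing, fell by 0.94 ± 0.19 on the log2 scale (adjusted p = 0.0428 in limma). Its TPM were 41.3, 22.2 and 18.8 in the ribo-depleted and 53.0, 44.7 and 30.2 in the poly(A) libraries, lower at each step in both methods. Ikbke, a kinase that phosphorylates IRF3 and IRF7, was at 1.43 ± 0.36 and Ticam1, an adaptor of Toll-like receptors, at 0.42 ± 0.16, neither passing.

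Of 12 IRF cofactors and regulators 0 rose and 1 fell, with a median of 0.00. Kpna3, an importin of nuclear transport, fell by 0.92 ± 0.14 on the log2 scale (adjusted p = 0.0277 in limma). Trim21, a ubiquitin ligase that acts on several IRFs, was at 1.32 ± 0.30 and Irf2bpl at -0.73 ± 0.33 without passing.

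Downstream, of 25 tested targets of the STAT2-IRF9 complex 12 rose and 0 fell, with a median of 2.21. The median was 1.49 in the ribo-depleted and 3.57 in the poly(A) libraries. The change was larger in the poly(A) libraries for 25 of 25, a count not taken over all genes. The largest values were those of Ifit1 (4.11 ± 0.77), Ifit3b (3.99 ± 0.86) and Ifi44 (3.65 ± 0.80), all past the threshold; Ifit3b has close relatives that can share its reads. Of 12 targets of IRF1 in antigen presentation and adhesion 7 rose and 0 fell, with a median of 1.60. Psmb8, an immunoproteasome subunit, was at 2.88 ± 0.24, and the peptide transporter genes Tap2 and Tap1 at 2.32 ± 0.16 and 1.80 ± 0.29, all past the threshold. Macrophage and leukocyte markers had 0 of 16 called in either direction in limma and a fitted median of -0.35, with 6 of 16 at an unadjusted p under 0.05. Of 10 fibroblast markers 2 rose and 0 fell, with a median of 0.33. Some genes, such as Isg15 and Usp18, stand in more than 1 of these lists.

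**Figure D4:**
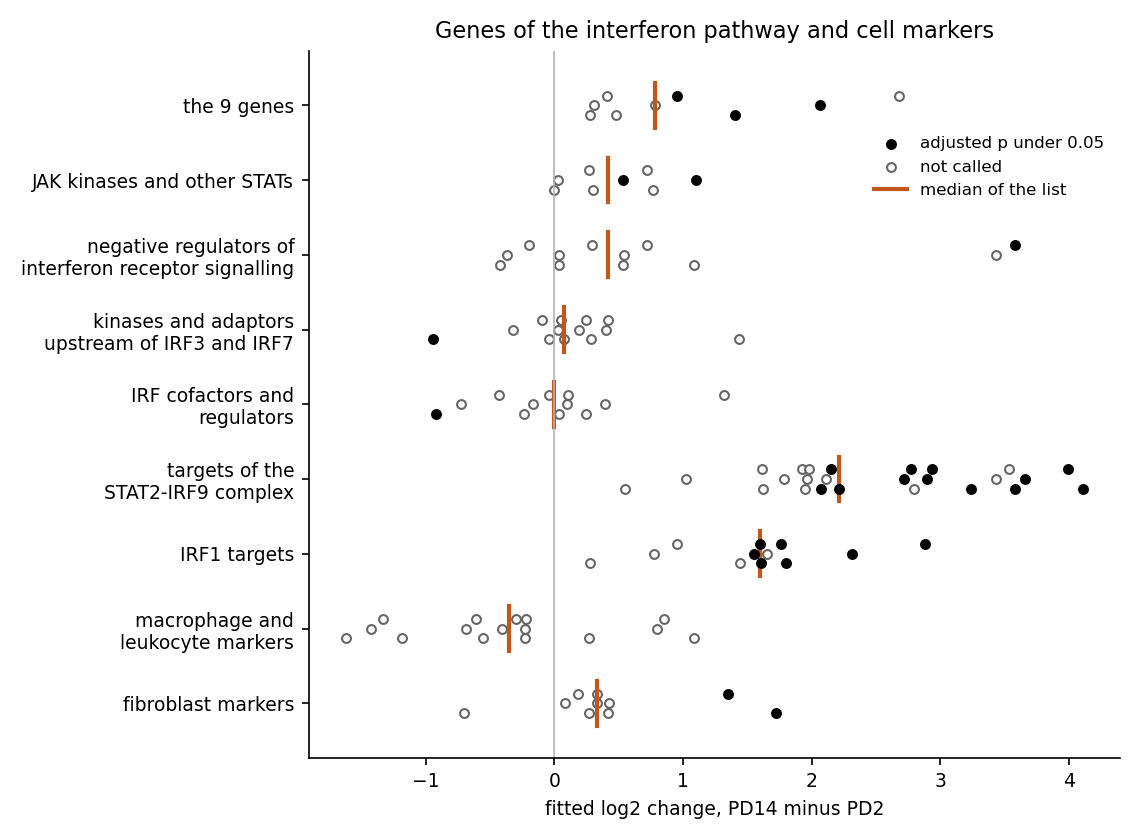
Fitted log2 change of TPM + 1 from PD2 to PD14 (horizontal) for the tested genes of each list (vertical), 1 point per gene, filled where the adjusted p was under 0.05, with an orange bar at the median of the list. The 9 genes have a median of 0.78, between the targets of the STAT2-IRF9 complex at 2.21 and the kinases and adaptors upstream of IRF3 and IRF7 at 0.07.

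The genes whose pattern over the 6 libraries was most like that of Irf7, Irf9 and Stat2 were found by the root mean square difference of log2(TPM + 1) after the mean of each library method was subtracted, among 10685 genes. Nearest to Irf7 were Rtp4 (0.18), Tgtp1 (0.18), Mx2 (0.20), Gbp2 (0.21) and Igtp (0.25). Nearest to Stat2 were Trim34a (0.11), Ddx58, the RNA sensor RIG-I (0.16), Gbp7 (0.17) and Parp14 (0.18). Nearest to Irf9 were Glrx, a glutaredoxin (0.03), Ahrr, a repressor of the aryl hydrocarbon receptor (0.05), Itm2b (0.06), Ankrd13d (0.06) and Itm2c (0.07). Each of these was picked for likeness over the same libraries, so the values describe and do not test. Tgtp1, Gbp2, Gbp7, Mx2 and Trim34a have close relatives in the mouse genome, and their reads can be divided between copies. Among the 9 genes themselves, Ifnar1 and Irf5 (0.17), Irf1 and Irf5 (0.18) and Ifnar2 and Irf2 (0.18) were the closest pairs, and Irf7 lay nearest to Stat2 (0.51).

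None of the 3 calls of PD14 against PD2 held under every setting. These calls were lost when either PD8 library or either PD14 library was left out, as were nearly all calls over all genes. Over the left-out libraries of PD14 fitted values were from 1.87 to 2.25 for Stat2. They were from 1.10 to 1.70 for Irf9 and from 0.79 to 1.12 for Irf2. Irf2 was also lost without either PD2 library (0.89 and 1.02). Without library method as a block the adjusted p of Stat2, Irf9 and Irf2 were 0.371, 0.307 and 0.566 in limma. In that fit 0 of all 13332 genes were called. Without the ribo-depleted PD2 library Irf7 was at 4.07, Ifnar2 at 1.03, Stat2 at 2.73 and Irf9 at 1.75. Without the poly(A) PD2 library Irf7 was at 1.29, Ifnar2 at 0.54, Stat2 at 1.39 and Irf9 at 1.05. Without the poly(A) PD14 library Irf7 was at 1.61.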

How the data were processed

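RNA-seq of mouse embryonic fibroblasts at PD2, PD8 and PD14 was analysed, with 2 libraries per group. The authors deposited TPM per gene symbol in 1 table, and per the submitters' processing notes bcl2fastq, cutadapt 1.14, HISAT2 2.0.5 and StringTie 1.3.1c were used with mm10; the gene annotation is not given in the sources used here. The deposited TPM carry no read numbers, so depth and counting error are unknown. The ribo-depleted columns sum to less than 1000000 in the table.

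Values were analysed as log2(TPM + 1) in limma 3.58.1 (R 4.3.3), over the 13332 genes that reached a TPM of 1 in 2 or more libraries, with terms for group and library method and a mean-variance trend (2 residual and 3.22 prior degrees of freedom). Two-sided p-values were adjusted over all genes tested (Benjamini-Hochberg). The script was tested on simulated data. Same-numbered libraries share a method per the labels' protocols, and their deviations from group means correlated at 0.664 to 0.854. Positions and exons are those of GENCODE M21, and promoters those of RefSeq.

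The 9 genes and the lists were chosen with earlier results of these data known. From each list the 3 genes with the largest change were named, and for Irf7, Irf9 and Stat2 the 5 most alike with a mean TPM of at least 5; 1 of these is not reported here. Endothelial and epithelial marker lists were also read. Of 5 tested endothelial markers 1 fell and 0 rose (median 0.33), and of 3 epithelial markers 1 fell and 0 rose (median -1.42). Of 3 tested plasmacytoid dendritic cell markers 0 were called in limma (median -0.05; 0 at an unadjusted p under 0.05). Alternatives were other pseudocounts, filters and scalings, no block, no trend, and leaving out each library.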

Additional observations from a re-analysis of the deposited data

How the results depend on the processing

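Over 15 alternatives the number of the 9 genes called in PD14 against PD2, 3 as reported, was 0 without the filter on TPM, 0 with no replicate block and 1 without the mean-variance trend, and 0 to 4 over left-out libraries. For the method difference, 2 as reported, it was 1 without the filter, 1 after rescaling to a common sum, 4 after quantile normalization and 1 without the trend, and 0 to 5 over left-out libraries. Over left-out libraries the counts for PD8 against PD2 and for the F test also moved, as did those over all genes. The counts for PD14 against PD8 and for the late step minus the early step were 0 under each alternative. Over all genes, the calls of PD14 against PD2 went from 1490 to 404 without the filter, to 938 without the trend, to 0 with no replicate block and to between 0 and 25 without a PD8 or PD14 library. Direction turned for some values. Irf1 in PD8 against PD2 was at -0.0034 after rescaling, -0.063 after quantile normalization and -0.039 with median-of-ratios factors, and Irf5 at -0.025 and -0.0091 with pseudocounts of 0.1 and 0.5, and at -0.0073, -0.086 and -0.035 with the 3 scalings. Left-out libraries gave -0.36 to 0.37 for Irf1, -0.35 to 0.36 for Irf5, -0.069 to 0.42 for Irf3 and -0.083 to 2.69 for Irf7 (1.31 as reported) in that comparison, -0.051 to 0.66 for Irf5 in PD14 against PD2, and -0.13 to 0.60 for Irf3 in PD14 against PD8. The cause was not tested. Of 402 fitted values 358 kept direction and side of the threshold, 22 lost the call, 5 gained it and 17 turned. TPM give no depth, so the counting error of low genes such as Irf5 is not known.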
